A study of Homo sapiens with 48 samples.

Results

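The genes described here are 45 genes of DNA replication and S phase, chosen as the rows of the raw count matrix that carry the symbols of origin licensing factors, replisome parts, enzymes of nucleotide supply and targets of E2F. All 45 symbols had a row among the 33892 rows of the matrix. RNA was sequenced from 8 human cancer cell lines grown in dishes: RKO and DLD-1, labelled colon cancer, H-23 and H-1299, labelled lung cancer, PANC-1 and CAPAN-2, labelled pancreatic cancer, and H-929 and RPMI, labelled multiple myeloma. Each line received carfilzomib, an irreversible inhibitor of the proteasome used against myeloma, or the solvent DMSO for 24 h, with 3 biological replicates in each of the 16 groups and 48 libraries in all. Per the labels, the drug was dosed in each line at its own concentration, the one that blocked proteasome activity by 50%, so that lines are matched by proteasome inhibition and not by dose. The concentrations themselves were not used here. Nothing in the labels gives a genetic change to any group, and each line stands for its tumour as an established culture.

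DNA replication begins in G1, when the origin recognition complex (ORC) together with CDC6 and CDT1 loads the ring-shaped MCM helicase onto origins, a step called licensing. At the start of S phase CDC45 and the GINS complex join the MCM ring to make the active helicase, DNA polymerases copy the strands behind it, PCNA holds them on the template, and the enzymes of nucleotide supply keep up the pool of precursors. Many of these genes are transcribed under E2F factors, which act once cyclin E and CDK2 have relieved the block by RB, and in proliferating cancer cells they are among the abundant transcripts of the cell cycle.

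Library totals ran from 9.12 M to 64.4 M counts, with the carfilzomib libraries of H-929 the shallowest, at 9.12 M to 9.93 M. Those libraries had more genes with any count, 22685 to 22943 against 20323 to 20970 under DMSO, a difference whose part was not tested. In those libraries the 10 most abundant genes took 11.8% to 13.2% of the counts, against 6.45% to 6.78% under DMSO, and in RPMI 11.5% to 11.9% against 7.16% to 7.81%, a shift whose part in the results was not tested. Marker levels are means over the 3 DMSO libraries of a line, in CPM (a gene's count scaled to the size of its library). All 7 plasma cell markers reached 10 CPM or more in the lines labelled myeloma. Markers of tissue origin were less complete. RKO listed KRT19, CDX1 and LGALS4 at 0 CPM, H-1299 had EPCAM at 0.188 CPM and CDH1 at 0, H-23 and H-1299 held SFTPC at 0.0163 CPM, and KRT7 was high in CAPAN-2 (1330 CPM) but not in PANC-1 (1.75 CPM), while SOX9 was at 57.4 and 65.5 CPM there. CDX2 was present in RKO (20.9 CPM). Some markers appeared outside their tissue, NAPSA in H-929 (41.8 CPM, against 0.921 CPM in H-1299 and 2.38 CPM in H-23) and EPCAM in RPMI (118 CPM). The plasma cell marker SDC1 was at 375 CPM in CAPAN-2, 205 in PANC-1, 173 in H-23, 121 in DLD-1 and 85 in RKO. In H-929 and RPMI SDC1 was at 557 and 422 CPM. DLD-1 also held SOX9 at 223 CPM and CFTR at 62.3 CPM, and CAPAN-2 held CDX2 at 12.6 CPM. Markers of T cells reached at most 0.0527 CPM except CD3E in H-929 (21.9 CPM), and fibroblast and monocyte markers did not exceed 14.5 CPM in any line.

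In all 8 lines more replication genes were called lower than higher under carfilzomib, and how many and how far depended on the line. A gene was called when the adjusted p of edgeR's quasi-likelihood test, run on the 6 libraries of a line over all genes, was under 0.05. In RKO 34 of the 44 members tested were called lower and 0 higher, where 5.28% of all genes tested were called lower and 3.62% higher. At an unadjusted p under 0.05 the count of higher members in RKO was also 0, and DESeq2's Wald test gave 0. DLD-1 had 30 of 43 lower and 1 higher, against 12.1% and 10.9% of all genes. H-23 had 35 of 43 lower and 1 higher, against 16.2% and 17.7%. These 3 lines shared small, even decreases, with median log2 fold changes of the members of -0.35 in RKO, -0.27 in DLD-1 and -0.30 in H-23, while the median over all genes tested was 0.00 in each.

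In CAPAN-2 38 of 43 members were called lower, 26 of them by at least 2-fold, and 0 higher, against 26.7% of all genes lower and 25.7% higher. Its 0 was also 0 at an unadjusted p under 0.05 and by DESeq2. The median over the members in CAPAN-2 was -1.11. H-929 had 31 of 43 lower and 2 higher, against 26.2% and 26.4%, with a median of -0.52, and 4 were higher when genes were kept at a mean of at least 50 counts. PANC-1 was the exception to the general fall: 12 of 43 members were lower and 6 higher, against 18.2% and 20.5% of all genes, and the median was -0.05. In H-1299, 22 of 44 members were lower and 14 higher (50% and 31.8%), against 31.3% and 29.8% of all genes. The share called higher there was thus near that of all genes. In RPMI, 23 of 44 were lower and 10 higher (52.3% and 22.7%), against 32.2% and 31.3%. Against a null fold change of 1.5 in place of no change, edgeR called 34 members lower in CAPAN-2, 9 in RPMI, 7 in H-929 and 6 in H-1299, where it called 6.04%, 12%, 7.28% and 10.4% of all genes lower. It called 0 in RKO, DLD-1, H-23 and PANC-1, where 2, 0, 1 and 0 members had an unadjusted p under 0.05 and 0.0551%, 0.253%, 0.394% and 0.395% of all genes were called lower. The medians were -0.22 in H-1299 and -0.19 in RPMI, with members spread from -1.31 to 1.32 in the former and from -1.39 to 0.97 in the latter. In these bulk libraries, fewer cells in S phase and less of a transcript in each cell cannot be told apart.

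**Figure D1:**
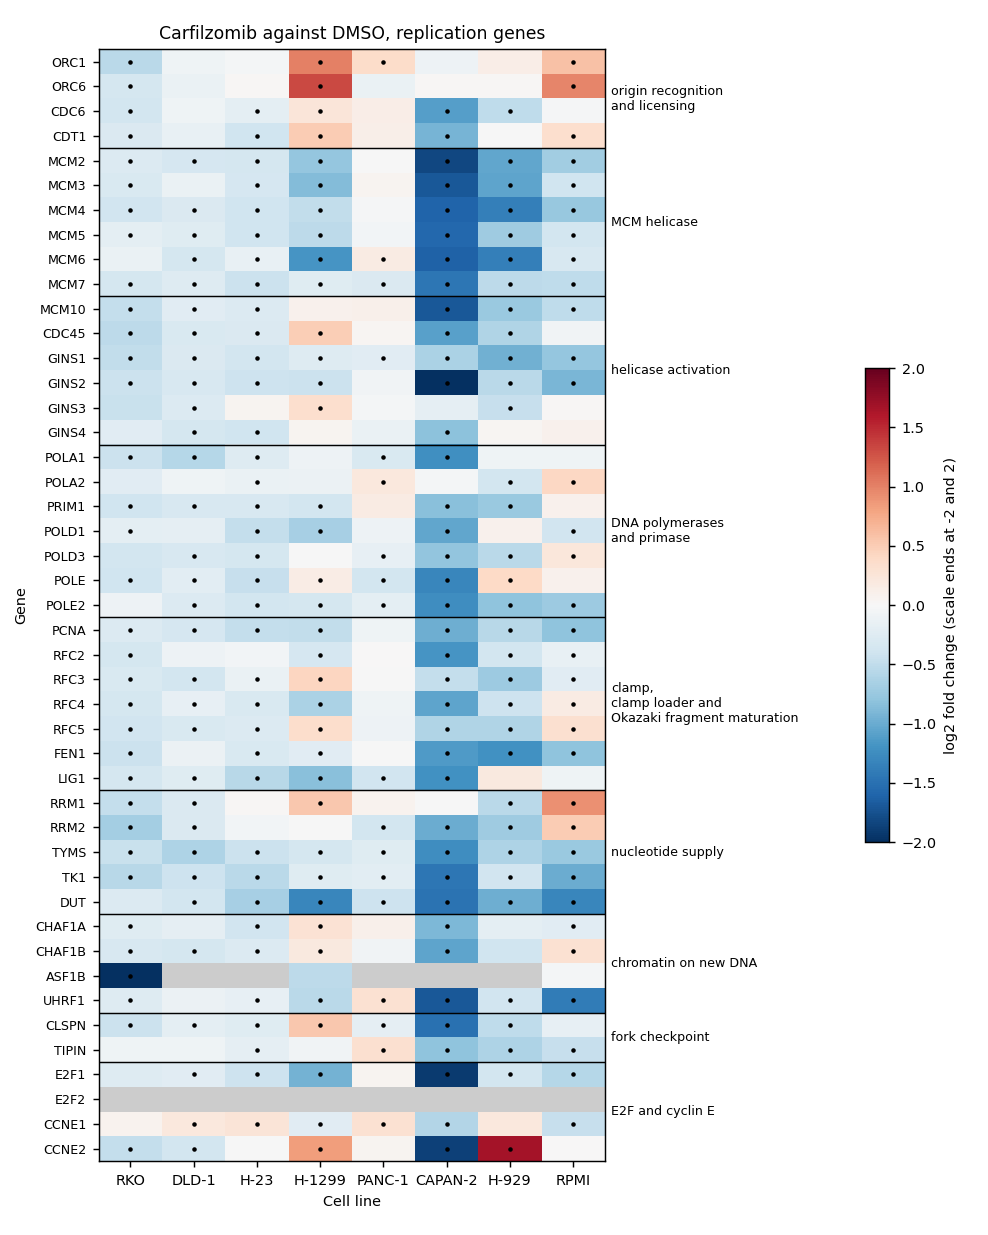
The log2 fold change of carfilzomib against DMSO is shown by colour for each replication gene (rows, grouped by role) in each cell line (columns), with a dot where edgeR's adjusted p was under 0.05 and grey where the gene was not tested. CAPAN-2 is the darkest blue column, and the strongest reds are CCNE2 in H-929 (1.66) and ORC6 in H-1299 (1.32).

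The decreases were visible in the summed abundance of the members. Under DMSO the 45 rows together held 3176 ± 31.8 CPM in PANC-1 and 7711 ± 229 in RPMI (SD, n = 3), the lowest and highest of the lines. In CAPAN-2 the sum was 3731, 4001 and 3570 under DMSO and 1710, 1716 and 1777 under carfilzomib, a ratio of means of 0.460. In H-929 it was 4719, 4652 and 5100 against 3682, 3040 and 3073, a ratio of 0.677. The other 6 lines had ratios from 0.7995 in H-23 to 0.943 in PANC-1, and in every line each DMSO library lay above each carfilzomib library. These sums use plain library totals, and the order of the lines depends on that. With TMM-scaled totals RPMI fell by more, from 8533, 8568 and 9113 to 6731, 6994 and 6923. H-1299 fell by less, from 6134, 6738 and 6281 to 5356, 5544 and 5186.

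**Figure D2:**
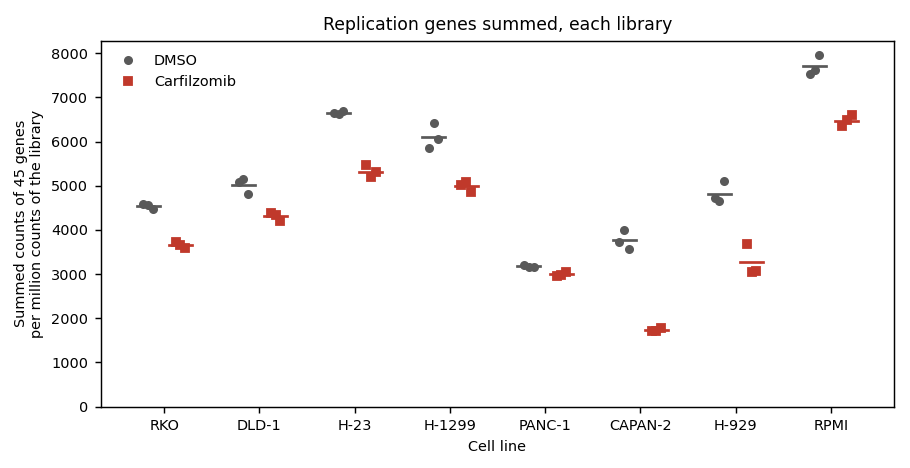
Each point is the summed count of the 45 replication genes in a library, in CPM (y axis), by line and treatment, and the short lines are group means. The groups are apart in all 8 lines, and the gap is widest in CAPAN-2 and narrowest in PANC-1.

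In a fit of all 48 libraries, 39 of 44 members had a negative average over the 8 lines and 2 a positive one at an adjusted p under 0.05, against 23.9% and 19.8% of the 22309 genes tested. The median of the members' averages was -0.39, and of all genes 0.02. The effect differed between lines for all 44 tested members, where 67.7% of all genes passed the same test. Replicate spread is the error in this fit. With the 8 lines as the units (limma on their log2 fold changes), only DUT (adjusted p = 0.0441) and TYMS (adjusted p = 0.0478) were lower, where 0.387% of 11622 genes were, and 24 of 43 members had an unadjusted p under 0.05, all with negative averages, where 11.7% of all genes had both. MCM7, GINS1, TYMS and TK1 were called lower in all 8 lines, 4 of the 43 members tested in every line, as were 0.473% of all genes tested in every line. Another 22 of the 43 were called lower in at least 1 line and higher in another, a share near the 47.8% of all genes.

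Of the 4 licensing factors among the members, all in H-1299 and all but CDC6 in RPMI went the other way from the helicase they load. ORC1 and ORC6 are subunits of the origin recognition complex, CDC6 is the ATPase that joins it, and CDT1 brings the MCM ring. In H-1299 all 4 were called higher and all 6 MCM genes lower, where 29.8% of all genes were called higher and 31.3% lower. ORC6 had 42.6, 51.2 and 43.7 CPM under DMSO and 115, 114 and 114 under carfilzomib there, a log2 fold change of 1.32 ± 0.06 (SE; edgeR adjusted p = 3.46e-09). ORC1 had 46.03, 58.98 and 50.46 CPM against 108, 105 and 97.7, a log2 fold change of 1.00 ± 0.08 (edgeR adjusted p = 1.94e-07). The groups did not overlap for either gene, and every carfilzomib library held more of each than any DMSO library. CDT1 rose by 0.50 ± 0.07 in H-1299.

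CDC6, the member of this role with the largest average change (-0.28), was called in both directions. In CAPAN-2 it had 77.8, 86.7 and 72.6 CPM under DMSO and 35.8, 35.6 and 38.6 under carfilzomib, a fall of 1.11 ± 0.07 on the log2 scale (edgeR adjusted p = 1.03e-08). In H-1299 it had 70.7, 89.4 and 77.5 CPM against 92.2, 95.7 and 93.5, a log2 fold change of 0.25 ± 0.07 (edgeR adjusted p = 0.00891). The CAPAN-2 groups were far apart, while in H-1299 the highest DMSO library came close to the lowest carfilzomib library. The H-1299 call was lost when library totals alone set the scale (0.14, adjusted p = 0.085), a scaling that lowered the median of all genes in H-1299 from -0.02 to -0.12.

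RPMI repeated the rise of 3 licensing factors, where 31.3% of all genes were called higher. ORC6 there had 53.3, 64.5 and 63.5 CPM under DMSO and 115, 122 and 120 under carfilzomib, a log2 fold change of 0.97 ± 0.07 (edgeR adjusted p = 3.53e-08). ORC1 had 171, 180 and 183 CPM against 273, 270 and 257, a change of 0.58 ± 0.05 (edgeR adjusted p = 3.7e-07). CDT1 rose by 0.34 ± 0.06, and CDC6 did not pass the test (-0.03). The groups of ORC1 and ORC6 were separate in RPMI, as they were in H-1299. In PANC-1 ORC1 alone of the 4 was called, with 25.64, 23.04 and 25.59 CPM under DMSO and 29.99, 31.03 and 34.89 under carfilzomib (0.37 ± 0.07, edgeR adjusted p = 0.000641). RKO went the opposite way, with all 4 lower, against 5.28% of all genes. There ORC1 fell by 0.53 ± 0.11 and ORC6 by 0.34 ± 0.09. DLD-1 had none of the 4 called. The positive averages of ORC1 (0.12 ± 0.03) and ORC6 (0.18 ± 0.04) rested on H-1299 and RPMI, since edgeR called neither average when H-1299 or RPMI was left out.

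**Figure D3:**
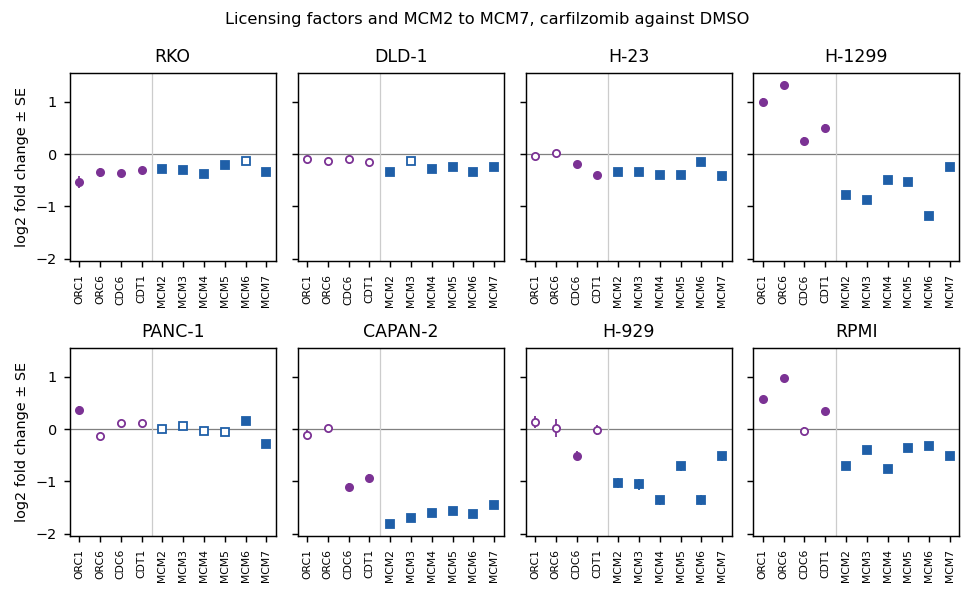
Log2 fold change of carfilzomib against DMSO with its standard error (y axis) for the 4 licensing factors (circles) and MCM2 to MCM7 (squares), a panel for each line, filled where the adjusted p was under 0.05. In H-1299 the circles lie above 0 and the squares below, and in CAPAN-2 all 6 MCM genes lie between -1.82 and -1.44.

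MCM2 to MCM7 encode the 6 subunits of the replicative helicase, and their transcripts fell together in most lines. All 6 were called lower in both lung lines, both myeloma lines and CAPAN-2, and 5 of 6 in both colon lines. Of all genes tested, between 5.28% (RKO) and 32.2% (RPMI) were called lower in these lines. Median log2 fold changes of the 6 were -1.61 in CAPAN-2, -1.04 in H-929, -0.65 in H-1299, -0.45 in RPMI, -0.37 in H-23, -0.29 in RKO, -0.27 in DLD-1 and -0.02 in PANC-1. MCM4 had the largest average change (-0.71 ± 0.02). In CAPAN-2 it had 390, 415 and 348 CPM under DMSO and 127, 121 and 132 under carfilzomib, a fall of 1.61 ± 0.07 (edgeR adjusted p = 2.14e-10). In PANC-1 it had 188, 181 and 186 CPM against 177, 184 and 184, a log2 fold change of -0.03 ± 0.03 that did not pass the test (edgeR adjusted p = 0.562). The 2 pancreatic lines thus differed: all DMSO libraries of CAPAN-2 lay far above its carfilzomib libraries, and those of PANC-1 overlapped.

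MCM6 was the subunit called in both directions, with -1.61 in CAPAN-2 and 0.16 in PANC-1. In H-1299 it had 189, 197 and 185 CPM under DMSO and 86.5, 86.0 and 79.2 under carfilzomib, a fall of 1.18 ± 0.05 (edgeR adjusted p = 7.42e-10). In PANC-1 it had 84.1, 82.6 and 88.8 CPM against 89.6, 98.5 and 96.7, a rise of 0.16 ± 0.04 (edgeR adjusted p = 0.0135). MCM7 was the subunit called lower in every line, by between 0.25 in H-1299 and 1.44 in CAPAN-2. In PANC-1, where the other subunits moved little, MCM7 fell from 304, 295 and 286 CPM to 244, 241 and 240, with no overlap (-0.29 ± 0.03, edgeR adjusted p = 1.49e-05).

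CDC45, MCM10 and the 4 GINS subunits turn the loaded ring into a working helicase. All 6 had negative averages, from -0.16 for GINS3 to -0.69 for GINS2. GINS2 in CAPAN-2 showed the largest fall of any member on a row with its own identifier. It had 40.1, 46.6 and 33.5 CPM under DMSO there and 8.18, 9.12 and 10.4 under carfilzomib, a fall of 2.12 ± 0.12 on the log2 scale (edgeR adjusted p = 2.17e-09). In PANC-1 it had 15.04, 13.96 and 14.98 CPM against 13.89, 14.20 and 13.94, which overlapped and did not pass the test (-0.07 ± 0.07, edgeR adjusted p = 0.493). MCM10, which binds the ring as it is activated, fell by 1.70 ± 0.08 in CAPAN-2. GINS1 was lower in all 8 lines, by 0.23 in PANC-1 at the least and by 0.96 in H-929 at the most.

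The subunits of the GINS complex did not move alike in H-1299. GINS1 (-0.25) and GINS2 (-0.43) were lower, GINS3 (0.33) was higher and GINS4 (0.06) did not pass the test. CDC45, which joins GINS on the ring, was also higher in H-1299, with 77.2, 85.8 and 81.3 CPM under DMSO and 112, 121 and 109 under carfilzomib (0.49 ± 0.06, edgeR adjusted p = 6.27e-06). The libraries of CDC45 there were separate by treatment. Opposite-strand genes in GENCODE release 29 overlap 23.6% of the exon bases of GINS4 and likewise of MCM2, so the counts of both are uncertain where strand was not used in counting.

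Polymerase alpha with primase starts each new strand, polymerase delta and epsilon extend it. All 7 members of this role had negative averages, between -0.09 for POLA2 and -0.55 for POLE2, the accessory subunit of polymerase epsilon. POLE2 in CAPAN-2 had 31.46, 36.04 and 32.46 CPM under DMSO and 13.8, 14.7 and 13.6 under carfilzomib, a fall of 1.24 ± 0.08 (edgeR adjusted p = 5.44e-09). In RKO it had 18.74, 20.32 and 21.04 CPM against 17.25, 20.09 and 19.03, with overlap and no call (-0.10 ± 0.11, edgeR adjusted p = 0.663). POLE, the catalytic subunit, parted from POLE2 in H-929. There it had 156, 144 and 183 CPM under DMSO and 234, 201 and 200 under carfilzomib, a rise of 0.39 ± 0.10 (edgeR adjusted p = 0.00353), while POLE2 fell by 0.81 on the log2 scale. POLE had its largest fall in CAPAN-2, by 1.31 ± 0.07.

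POLA2, the second subunit of polymerase alpha, was higher in RPMI (0.42 ± 0.05) and PANC-1 (0.21 ± 0.05) and lower in H-929 and H-23. Its partner POLA1 was called in neither H-929 nor RPMI (-0.08 in each) and fell by 1.23 in CAPAN-2, where POLA2 had -0.04 and no call. A gene on the same strand overlaps 35.1% of POLA2's exon bases, which makes its counts uncertain. POLD3, an accessory subunit of polymerase delta, was higher in RPMI (0.23 ± 0.05), and POLD1, its catalytic subunit, was lower there (-0.38). PRIM1, the primase, was lower in 6 lines and not called in PANC-1 or RPMI. Genes on the same strand overlap 16.2% of PRIM1's exon bases, so its counts are uncertain as well.

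PCNA is the sliding clamp, RFC2 to RFC5 are subunits of its loader, and FEN1 and LIG1 trim and join Okazaki fragments. All 7 had negative averages, and all 7 were called lower in RKO and in CAPAN-2, against 5.28% and 26.7% of all genes. FEN1, with the largest average (-0.57 ± 0.03), had 176, 189 and 194 CPM under DMSO in H-929 and 88.0, 72.4 and 81.2 under carfilzomib, a fall of 1.21 ± 0.09 (edgeR adjusted p = 8.29e-08). In PANC-1 it had 72.8, 69.3 and 75.1 CPM against 73.2, 70.1 and 72.2, almost the same values in both groups (-0.01 ± 0.04, edgeR adjusted p = 0.845). PCNA was lower in 7 lines, from -0.27 in RKO to -0.98 in CAPAN-2, where it had 240, 257 and 197 CPM under DMSO and 113, 118 and 122 under carfilzomib. PANC-1 again gave no call for it (-0.09 ± 0.04, edgeR adjusted p = 0.0962).

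The clamp loader subunits were not uniform. In H-1299 RFC3 (0.43 ± 0.06) and RFC5 (0.35 ± 0.04) were higher, and RFC4 (-0.64) and RFC2 (-0.34) were lower. In RPMI RFC5 (0.32 ± 0.05) and RFC4 (0.17 ± 0.06) were higher, and RFC3 (-0.23) and RFC2 (-0.15) were lower. LIG1, the ligase, was lower in 6 lines, by 1.21 in CAPAN-2 at the most, and was not called in H-929 (0.20) or RPMI (-0.09).

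Nucleotide supply held the deepest average fall and also a clear rise. DUT hydrolyses dUTP and so keeps uracil out of DNA, TYMS makes dTMP from dUMP, TK1 salvages thymidine, and RRM1 and RRM2 are the large and small subunits of ribonucleotide reductase. DUT had the largest average of all members on a row of their own (-0.89 ± 0.02), though opposite-strand genes overlap 14.5% of its exon bases and make its counts uncertain where strand was not used. In CAPAN-2 it had 58.1, 57.9 and 50.2 CPM under DMSO and 18.3, 19.1 and 22.9 under carfilzomib, a fall of 1.47 ± 0.09 (edgeR adjusted p = 3.86e-09). It fell to a similar degree in H-1299, from 140, 144 and 137 CPM to 55.4, 56.5 and 57.7 (-1.31 ± 0.04, edgeR adjusted p = 2.14e-10), and in RPMI, from 295, 291 and 294 CPM to 120, 114 and 122 (-1.30 ± 0.05, edgeR adjusted p = 1.39e-10). DUT therefore stood among the most lowered members in H-1299 and RPMI. In those lines 31.8% and 22.7% of the members tested were called higher, against 29.8% and 31.3% of all genes. RKO gave the weakest change of DUT, with 51.8, 67.8 and 60.9 CPM against 50.4, 46.9 and 51.7 (-0.28 ± 0.09). There the groups just failed to overlap, and the adjusted p was 0.0711 in edgeR.

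TYMS and TK1 were lower in every line. Both were lowered least in PANC-1, TYMS by 0.24 and TK1 by 0.21, and most in CAPAN-2, by 1.24 and 1.45. In CAPAN-2 TK1 went from 71.0, 73.3 and 62.2 CPM to 23.2, 24.9 and 27.6. Of TYMS exon bases 46.6% overlap ENOSF1 and TYMSOS on the opposite strand, so its row is uncertain where counting ignored strand. ENOSF1 itself was lower in 5 of the 8 lines, by 0.71 in H-1299 and 0.68 in CAPAN-2, and its part in the TYMS values was not tested.

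The 2 subunits of ribonucleotide reductase rose together in RPMI, where TYMS, TK1 and DUT fell. RRM1 had 201, 198 and 197 CPM under DMSO and 377, 384 and 361 under carfilzomib, a log2 fold change of 0.91 ± 0.05 (edgeR adjusted p = 2.85e-09). RRM2 had 328, 310 and 368 CPM against 460, 472 and 505, a change of 0.51 ± 0.07 (edgeR adjusted p = 1.21e-05). Both had carfilzomib libraries well above all DMSO libraries. In H-1299 RRM1 was higher (0.54 ± 0.05) and RRM2 was at -0.00, and in CAPAN-2 RRM2 fell by 1.00 while RRM1 was at -0.01, neither of the unmoved subunits passing the test. RRM2 fell by 0.68 ± 0.06 in RKO, from 314, 330 and 316 CPM to 219, 200 and 182. A gene on the same strand overlaps 20.2% of RRM2's exon bases.

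CHAF1A, CHAF1B and ASF1B deliver histones to newly copied DNA, and UHRF1 recognises hemimethylated DNA behind the fork and recruits the maintenance methyltransferase. UHRF1 had the largest average of this role on a row of its own (-0.57 ± 0.03). In CAPAN-2 it had 95.3, 104 and 87.3 CPM under DMSO and 25.4, 30.5 and 32.8 under carfilzomib, a fall of 1.70 ± 0.09 (edgeR adjusted p = 1.34e-09). In PANC-1 it rose, from 56.4, 54.1 and 51.2 CPM to 68.4, 63.3 and 69.1 (0.31 ± 0.05, edgeR adjusted p = 0.000217). The groups were separate in both pancreatic lines, in opposite directions. RPMI, with 115, 111 and 118 CPM under DMSO and 40.75, 45.95 and 44.17 under carfilzomib, gave a fall of 1.39 ± 0.06 (edgeR adjusted p = 2.8e-10), the largest of any member there. CHAF1A was higher in H-1299 (0.29 ± 0.06), and CHAF1B was higher in H-1299 (0.20 ± 0.06) and in RPMI (0.30 ± 0.08).

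ASF1B could be tested in 3 lines only and its row is uncertain, because it shares an identifier with a further row of the matrix. It was called in RKO, where it had 1.04, 1.16 and 0.727 CPM under DMSO and 0.318, 0.147 and 0.126 under carfilzomib, from 13 to 16 counts against 2 to 5 (-2.23 ± 0.63, edgeR adjusted p = 0.0457). The groups did not overlap there, at a depth where a few reads decide the value. The DMSO library of H-23 with 387 counts and the carfilzomib library of CAPAN-2 with 83 stood apart from the rest of the row.

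CLSPN is the adaptor that lets ATR activate CHK1 at stalled forks, and TIPIN belongs to the complex that protects the fork. CLSPN had 84.6, 96.2 and 80.2 CPM under DMSO in CAPAN-2 and 29.4, 31.7 and 31.9 under carfilzomib, a fall of 1.49 ± 0.07 (edgeR adjusted p = 7.44e-10). In H-1299 it rose from 115, 138 and 119 CPM to 187, 174 and 175, a change of 0.53 ± 0.06 (edgeR adjusted p = 9.02e-06). Neither line had overlapping groups, and the directions were opposite. TIPIN was lower in 4 lines and higher in PANC-1, with 20.97, 20.16 and 20.69 CPM against 24.63, 25.35 and 27.25 (0.32 ± 0.06, edgeR adjusted p = 0.000549). A same-strand pseudogene overlaps 21% of its exon bases.

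E2F1 is a transcriptional activator of the S-phase programme, and CCNE1 and CCNE2 encode cyclin E, the partner of CDK2 at the G1/S boundary. E2F1 was lower in 6 lines. In CAPAN-2 it had 78.1, 93.6 and 76.4 CPM under DMSO and 20.7, 21.3 and 23.8 under carfilzomib, a fall of 1.92 ± 0.08 (edgeR adjusted p = 2.8e-10). In H-1299, where the licensing factors rose, it fell by 0.95 ± 0.08, from 62.7, 78.0 and 61.9 CPM to 36.94, 34.19 and 34.01. In PANC-1 it had 61.9, 58.2 and 61.4 CPM against 63.4, 64.0 and 61.4, an overlap without a call (0.06 ± 0.04, edgeR adjusted p = 0.298). E2F2 was not tested in any line: its row, which shares an identifier with another, held 0 to 4 counts in every library.

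CCNE2 ranged from -1.86 in CAPAN-2 to 1.66 in H-929, a span of 3.53 on the log2 scale and the widest of the members called in both directions. In H-929 it had 5.02, 5.91 and 4.56 CPM under DMSO and 16.8, 16.4 and 16.1 under carfilzomib (1.66 ± 0.20, edgeR adjusted p = 7.73e-06). In H-1299 it rose from 19.5, 23.4 and 21.3 CPM to 37.99, 40.69 and 35.84 (0.84 ± 0.08, edgeR adjusted p = 1.3e-06). In CAPAN-2 it fell from 14.44, 14.37 and 15.97 CPM to 4.25, 3.65 and 4.45 (edgeR adjusted p = 7.27e-09). Treated and solvent libraries were separate in all 3 lines. Of CCNE2 exon bases 37.1% overlap opposite-strand genes including INTS8, whose own log2 fold changes were 0.13 in H-929, -0.01 in H-1299 and 0.18 in CAPAN-2.

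CCNE1 was higher in 3 lines and lower in 3. It had 22.9, 23.8 and 22.5 CPM under DMSO and 27.4, 26.7 and 26.2 under carfilzomib in DLD-1 (0.21 ± 0.06, edgeR adjusted p = 0.025), the only member called higher there. In H-23 it had 48.7, 45.4 and 48.3 CPM against 58.7, 58.3 and 53.7 (0.26 ± 0.05, edgeR adjusted p = 0.00117), again the only higher member of the line. In PANC-1 it rose by 0.30 ± 0.06. It fell by 0.59 in CAPAN-2, 0.46 in RPMI and 0.22 in H-1299, while CCNE2 rose in H-1299. In DLD-1 the call ended with the replicate number as a block (adjusted p = 0.0606) and in the fit of all 48 libraries (adjusted p = 0.0759), and also without DMSO replicate 1 and without any of the 3 carfilzomib libraries, where CCNE1 had log2 fold changes of 0.20 to 0.23.

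The promoters of E2F1 and of the licensing factors CDC6 and CDT1 carry E2F-type motifs just before their transcription starts, and that of CCNE1 did not show one, so the 120 bases before each start are printed to let the changes be read beside the sequence. They come from RefSeq on GRCh38.p14, read 5′ to 3′ on the strand of the gene, at chr20:33686386-33686505 (minus strand) for E2F1, chr17:40287759-40287878 (plus) for CDC6, chr16:88803669-88803788 (plus) for CDT1 and chr19:29811871-29811990 (plus) for CCNE1. Capitals mark TTTCCCGC, TTTGGCGC, TTTCGCGC, TTTGCCGC or TTTGGCGG on either strand.
E2F1: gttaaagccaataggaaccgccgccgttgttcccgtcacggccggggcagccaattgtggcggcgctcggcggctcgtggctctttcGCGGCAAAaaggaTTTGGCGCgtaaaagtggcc
CDC6: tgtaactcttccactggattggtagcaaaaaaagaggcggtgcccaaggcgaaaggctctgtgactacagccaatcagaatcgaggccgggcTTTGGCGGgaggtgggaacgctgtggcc
CDT1: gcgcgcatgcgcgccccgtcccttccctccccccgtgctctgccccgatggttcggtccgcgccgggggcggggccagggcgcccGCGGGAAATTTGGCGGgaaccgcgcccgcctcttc
CCNE1: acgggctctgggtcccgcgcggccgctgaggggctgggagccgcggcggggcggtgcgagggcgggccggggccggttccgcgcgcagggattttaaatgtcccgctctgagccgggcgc
E2F1 holds TTTGGCGC on its own strand, ending 13 bases before the start, and TTTGCCGC on the other strand, ending 26 bases before it. CDC6 holds 1 match, TTTGGCGG ending 21 bases before the start. CDT1 holds TTTGGCGG and, adjoining it on the other strand, TTTCCCGC, and its RefSeq start was not found in the first bases of a GENCODE transcript. CCNE1 held none of the 5 in this window, which says only that these letters are not there. The motif TTTGGCGG and the length of the window were chosen after a first look at the promoters, which searched 8 motifs over a longer window.

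Over the 250 bases before the start, 19 of 40 members with a promoter in the RefSeq table (47.5%) held at least 1 of the 5 motifs on either strand, against 1096 of 27305 genes in that table (4.01%). The most frequent was TTTCCCGC, in 10 of the 40 members against 1.7% of all genes. The members were chosen in part as E2F targets, and TTTGGCGG after a first look at the promoters. This share therefore describes those choices as much as the genes. Matches were spread over the roles, among them MCM3, MCM6 and MCM7, POLA1, POLA2 and POLE, LIG1, PCNA and RFC3, and DUT and TYMS. Members with a match went both ways under carfilzomib: DUT was lower in 7 lines, and CDT1 was higher in H-1299 and RPMI and lower in 3 others. MCM4, MCM5, GINS4, POLD3 and CCNE2 had no row in the table.

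Lines were set against the mean of the other 7 in the fit of all libraries to test whether their replication genes responded differently. CAPAN-2 had the most members apart: the effect was more negative than the mean of the other 7 for 38 of 44, against 11.1% of all genes. The difference was -1.61 ± 0.10 for GINS2 (edgeR adjusted p = 6.06e-17) and -1.25 ± 0.08 for MCM2 (edgeR adjusted p = 2.99e-16). ORC6, GINS1, GINS3, POLA2 and RRM1 did not differ detectably there, and ASF1B was more positive, on the row where 1 carfilzomib library of CAPAN-2 stood apart. For PANC-1 the effect was more positive than the mean of the other 7 for 32 of 44, against 13.6% of all genes. The difference was 0.77 ± 0.06 for MCM4 (edgeR adjusted p = 1.69e-13).

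H-929 had 26 of 44 members more negative than the mean of the other 7, against 25.5% of all genes. CCNE2 was more positive there by 1.78 ± 0.16 (edgeR adjusted p = 3.01e-13). In H-1299 26 members were more positive and 8 more negative, against 17.1% and 20.1% of all genes. ORC6 differed by 1.23 ± 0.11 (edgeR adjusted p = 8e-13) and DUT by -0.56 ± 0.07 (edgeR adjusted p = 7.46e-09). RPMI had 19 more positive and 11 more negative, against 16.1% and 19.7%. RRM1 differed there by 0.96 ± 0.06 (edgeR adjusted p = 3.75e-19) and UHRF1 by -1.03 ± 0.10 (edgeR adjusted p = 2.26e-11). Every line had members called on both sides of the mean of the other 7. In both H-1299 and RPMI, ORC1 and ORC6 lay above and DUT below. DLD-1 had 22 more positive and 3 more negative, against 11.7% and 9.14% of all genes. These lines and their directions were chosen for the text after the counts for all 8 had been seen.

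Genes that act next in the cycle, in G2 and mitosis, moved apart from the replication genes in some lines and had close medians in others. All 26 G2 and mitosis genes examined were called lower in RKO, against 5.28% of all genes. Their median log2 fold change there was -0.79, beside -0.35 for the replication genes. All 26 were also lower in PANC-1, against 18.2% of all genes, with a median of -0.36 beside -0.05. CAPAN-2 showed the reverse order, with a median of -0.05 beside -1.11. Its 7 lower and 7 higher genes (26.9% each) were near the 26.7% and 25.7% of all genes. H-1299 had 6 lower and 13 higher (23.1% and 50%), against 31.3% and 29.8% of all genes, with a median of 0.12 beside -0.22. DLD-1, H-23, H-929 and RPMI had 24, 25, 18 and 17 lower, against 12.1%, 16.2%, 26.2% and 32.2% of all genes. Their medians were -0.42, -0.32, -0.51 and -0.33, beside -0.27, -0.30, -0.52 and -0.19 for the replication genes. In H-1299 the count of lower genes went from 6 to 10 with library totals as the scale. The 2 gene lists were set side by side without a test of their difference.

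**Figure D4:**
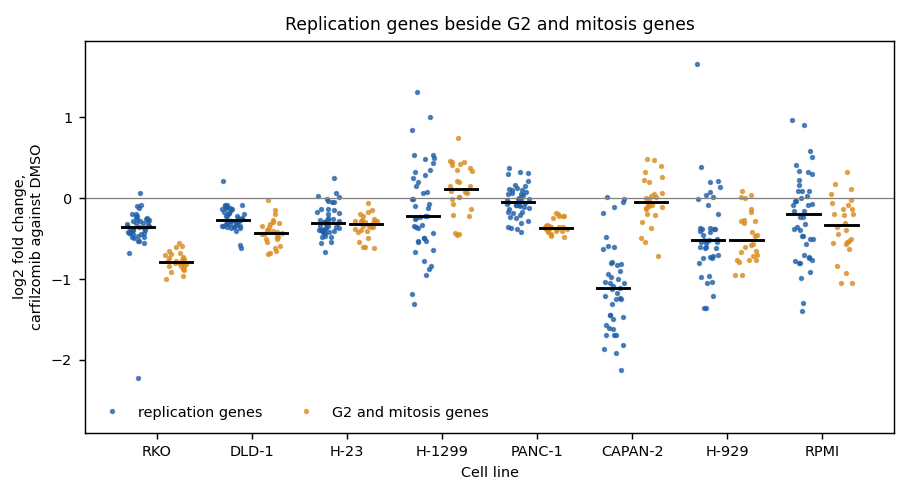
Each point is the log2 fold change of one gene (y axis) in a line, blue for the replication genes tested and orange for 26 G2 and mitosis genes, and black bars are medians. Replication genes lie lower in CAPAN-2 (-1.11 against -0.05), and G2 and mitosis genes lie lower in PANC-1 (-0.36 against -0.05) and RKO (-0.79 against -0.35).

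Other genes of the pathway were taken from lists that do not share genes with the 45. Of 40 other replication genes, edgeR called 33 lower and 4 higher on average at an adjusted p under 0.05. Of all genes tested 23.9% were lower and 19.8% higher. The median average of the 40 was -0.26. ORC3, a further subunit of the origin recognition complex, had an average of 0.69 ± 0.02 and was called higher in 7 lines, and in RPMI it went from 40.5 ± 0.95 to 114 ± 5.3 CPM (SD, n = 3). RKO was the line where ORC3 was not called (-0.12). Of 18 genes of G1/S control, 13 were called lower and 5 higher on average, against the same 23.9% and 19.8% of all genes. TFDP1, the dimerization partner of E2F, fell in 7 lines with an average of -0.64 ± 0.02, and E2F8, a repressor of the family, fell in 5 (-0.63 ± 0.03). E2F6, a repressor independent of RB (0.43 ± 0.03), and LIN54, the DNA-binding subunit of the DREAM complex (0.40 ± 0.03), were each higher in 5 lines.

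Under DMSO the members differed widely in level. Levels are given as CPM per kilobase of exon, from GENCODE release 29, for the 43 members whose identifier gave an exon length. PCNA was the most abundant by its median over the 8 lines (110), followed by MCM7 (89.5), MCM3 (77.7), RRM2 (66.7) and MCM4 (60.7), and CCNE2 (3.32) and GINS3 (4.65) were the least. PCNA ran from 47.4 ± 2.9 in H-929 to 282 ± 15.4 in RPMI (SD, n = 3), with 75.9 ± 2.25 in PANC-1, 80.0 ± 1.15 in RKO, 104 ± 3.01 in H-23, 116 ± 7.67 in H-1299, 164 ± 11.8 in DLD-1 and 170 ± 22.8 in CAPAN-2 between them. The neighbours DLD-1 and CAPAN-2 did not differ beyond their spread.

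RPMI held the highest level for 21 of the 43 members and PANC-1 the lowest for 19. The ratio of the highest line to the lowest ran from 1.79 for CLSPN to 8.34 for ORC1, with a median of 4.18. ORC1 was at 63.6 ± 3.32 CPM per kilobase in RPMI and 7.62 ± 0.85 in CAPAN-2. CCNE2 was highest in RKO (5.62 ± 0.44) and H-1299 (5.28 ± 0.44), which did not differ beyond their spread, and lowest in H-929 (1.27 ± 0.18) and H-23 (1.44 ± 0.09), which likewise did not differ beyond their spread. Under carfilzomib it rose in H-929 and was not called in H-23 (-0.01).

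**Figure D5:**
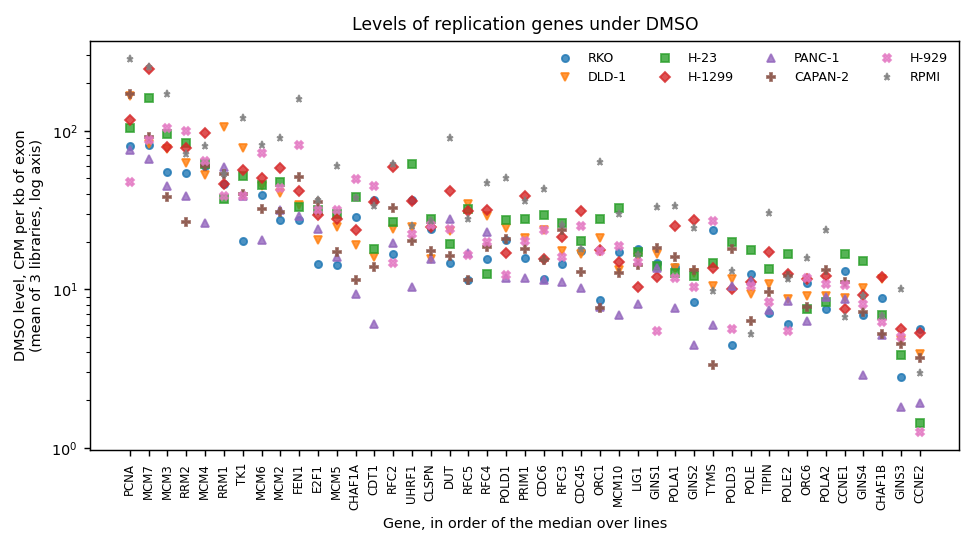
DMSO levels of the replication genes in CPM per kilobase of exon (y axis, log scale; each symbol is the mean of 3 libraries of a line), with genes ordered along the x axis by their median over lines. PCNA and the MCM genes stand at the left, CCNE2 and GINS3 at the right, and the RPMI stars are the top symbol for 21 genes.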

How the data were processed

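The authors deposited raw counts, 33892 gene rows for 48 libraries, and these counts were used without change. Per the labels' protocols the libraries were made from total RNA and stranded; the design text of the series names mRNA sequencing instead. The submitters' processing notes name bcl2fastq 2.19, FastQC, Trimmomatic, HISAT2, DESeq2 and build hg38, and the counting program, its annotation and its use of strand are not given in the sources used here. An identifier is repeated on 4803 rows, E2F2 and ASF1B among them.

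Each line's 6 libraries were tested with edgeR 4.0.16 in R 4.3.3 (TMM, filterByExpr, quasi-likelihood F test, Benjamini-Hochberg over all genes of the line), and all 48 libraries were fitted together for averages and differences between lines. Standard errors came from the log2 fold change and its F value. Printed CPM use TMM-scaled totals, and the summed CPM of the members plain totals. The scripts were checked on simulated data. Counts of replicates differed beyond sampling noise, with chi-square values of 3.475 to 17.25 per degree of freedom over pairs, and p-values measure the spread between these cultures. Replicate numbers were not used as pairs in the main fits, since deviations of same-numbered libraries did not correlate by over 0.1 in any line. The labels give no sequencing batch.

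The members and gene lists were chosen with earlier results of these data known. Values in every library are given for the member of each role with the largest average change, in the line where it changed most and the line where it changed least or in the opposite direction, and for up to 3 higher members of each line. Other members' library values were chosen after they were seen. From the other lists the 3 largest rises and falls on average were named, except 1 gene that is not reported here. Alternatives were DESeq2's size factors, library totals, other filters, DESeq2 1.42.0, a null fold change of 1.5, a replicate block, lines as units (limma 3.58.1) and leaving out each library or line. The alternatives for lines against the other 7 were added after seeing the data.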

Additional observations from a re-analysis of the deposited data

Results flagged for a closer look

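The effect of carfilzomib differed between lines for 44 of the 44 members tested (edgeR's quasi-likelihood test of the differences in the fit of all libraries), where 67.7% of all genes also passed. Of these, 22 were called lower in at least 1 line and higher in another, near the 47.8% of all genes tested in every line. The 9 with a span of at least 1.5 between their highest and lowest log2 fold changes, a limit set after the values were seen, are listed by size. CCNE2 spanned 3.53, from CAPAN-2 to H-929. CLSPN spanned 2.02 and UHRF1 2.01, both with the low end in CAPAN-2 and the high end in H-1299 and PANC-1. MCM6 spanned 1.77, from CAPAN-2 to PANC-1, and POLE 1.70, from CAPAN-2 to H-929. ORC6 spanned 1.66 and ORC1 1.53, both from RKO to H-1299. CDC45 spanned 1.57, from CAPAN-2 to H-1299, and RRM2 1.51, from CAPAN-2 to RPMI.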

How the results depend on the processing

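Fold changes were small in several lines, so a null fold change of 1.5 changed the counts most. With it, members called lower numbered 0 in RKO, DLD-1, H-23 and PANC-1, 6 in H-1299, 7 in H-929 and 9 in RPMI, and members called higher 0 in DLD-1, H-23 and PANC-1, 3 in H-1299, 1 in H-929 and 2 in RPMI, while CAPAN-2 had 34 lower. Members called higher in DLD-1 numbered 0 with a replicate block, 0 in a fit of all 48 libraries, 2 with rows of a shared identifier summed, and 0 to 1 when each library was left out. H-929 had 4 higher members at a mean of at least 50 counts, and CAPAN-2 had 1 with no filter. Leaving out each library gave 23 to 32 lower members in RKO and 21 to 36 in DLD-1, within 1.5 times the counts from all libraries. The number of members with a higher average was 0 without the line H-1299 and 0 without the line RPMI, and with lines as units there were 2 lower and 0 higher averages. FEN1 in PANC-1, never called, ran from -0.048 to 0.0148 over the fits without 1 library, with 0.0148 without DMSO replicate 3 and 0.0024 without carfilzomib replicate 2. DUT in RKO passed in 4 alternatives, among them DESeq2's Wald test and the fit without DMSO replicate 1. The replicate block changed no other count by over 1.5 times, and gave 34 lower in RKO and 29 in DLD-1. Deviations of same-numbered libraries did not correlate by over 0.1 in any line. Even so, all 6 libraries of H-23 and 5 of the 6 of PANC-1 correlated best with their own number. Depth limited the rows of E2F2 and ASF1B.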
